A study of Mus musculus with 16 samples.

Results

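A set of 7 genes of the MHC class I antigen presentation pathway was followed over time in mouse embryonic stem cells made to lose the RNA helicase DDX10. They were Tap1, Tap2, Tapbp, B2m, Psmb8, Psmb9 and Psmb10, selected on their values in all 8 groups by a rule that also took Tap1 as a p53 target. Their values are therefore given as a description, without p-values. Of the 7 genes 6 were among the 14552 genes with values and among the 13355 tested, and Psmb8 was not analysed here.

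Class I molecules show peptides from inside the cell to cytotoxic T cells. The proteasome cuts proteins into peptides, and under interferon its constitutive catalytic subunits (Psmb5, Psmb6 and Psmb7) give way to the immunoproteasome subunits Psmb8, Psmb9 and Psmb10. The TAP transporter, made of Tap1 and Tap2, pumps the peptides into the endoplasmic reticulum, where tapasin, the product of Tapbp, holds the empty heavy chain and its light chain B2m beside TAP until a peptide binds. Embryonic stem cells are known for low class I expression, and p53 is known to turn on the human TAP1 gene.

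RNA sequencing covered 16 libraries of E14, a mouse embryonic stem cell line kept on gelatin with serum, LIF and the inhibitors CHIR99021 and PD0325901. All of them, untreated ones included, carried the genotype Ddx10-AID, Tir1, which puts a degron tag on DDX10 and supplies Tir1, the plant protein that sends tagged proteins to degradation in the presence of auxin. Auxin (indole-3-acetic acid, IAA, 500 µM) was present for 2, 4, 6 or 12 h or for 1 or 2 days, each a group of its own. A withdrawal group was grown without auxin for 2 days after a treatment of 2 days, and another group stayed untreated. Each of the 8 groups had 2 libraries, and nothing in the labels says that these came from separate cultures, so errors and p-values measure the spread between these libraries, which may be technical. Whether the line was 1 clone is not given in the sources used here. Untagged cells under auxin were not analysed here, so auxin itself and the loss of DDX10 cannot be told apart.

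The libraries held an estimated 13.6 to 17.5 M reads in genes, and 1 read was worth 0.89 to 1.24 normalized counts. Ddx10 mRNA, which a degron that acts on the protein need not change, stood at 1471 ± 53.4 normalized counts in untreated cells, 1947 ± 141 at 2 h, 1870.4 ± 21.7 at 4 h, 1676 ± 1.24 at 6 h, 1309 ± 5.10 at 12 h, 1024 ± 191 at 1 day, 1019 ± 30.5 at 2 days and 1596 ± 139 after withdrawal (SD, n = 2 each). By limma, Ddx10 exceeded untreated cells in the 2 h group by 0.40 on the log2 scale (adjusted p = 0.0248) and in the 4 h group by 0.35 (adjusted p = 0.0389). It was lower than in untreated cells in the 1-day group, with a change of -0.53 (limma, adjusted p = 0.00184), and in the 2-day group, with -0.53 (adjusted p = 0.00131). All 8 markers of embryonic stem cells were measured. Their sum was 95312 to 105478 normalized counts in the libraries of 2 to 12 h and 110866 to 124849.7 in the others. The 8 libraries of 2 to 12 h stood apart from the other 8 in several genes, for example in Psmb5, which had 725 to 953 normalized counts there and 1381 to 1663 in the others. Time under auxin and whatever else set these libraries apart cannot be told apart, so 4 h, 6 h and 12 h are also compared with 2 h.

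By GENCODE M21 on GRCm38, the assembly also called mm10, Tap1 (ENSMUSG00000037321) lies on the plus strand at chr17:34187553-34197225 and Psmb9 (ENSMUSG00000096727) on the minus strand at chr17:34181987-34187764, so that the pair overlaps head to head by 212 bases. Whether the authors' counting used strand is not given in the sources used here, and reads from the overlap cannot be told apart. Psmb8 follows at chr17:34197721-34201454 and Tap2 (ENSMUSG00000024339) at chr17:34203527-34216321, and Tapbp (ENSMUSG00000024308) lies on the other side at chr17:33915899-33929292. B2m (ENSMUSG00000060802) lies at chr2:122147686-122153083 and Psmb10 (ENSMUSG00000031897) at chr8:105935735-105938444. RefSeq promoter windows on GRCm38.p6, from 250 bases before to 50 bases after a start, were matched for 6 of the 7 genes, all but Tap2. The Tap1 window (chr17:34187306-34187605, plus strand) is shown because it shares 275 bases with that of Psmb9, whose level took another course. The B2m window (chr2:122147437-122147736, plus strand) is shown for its interferon letters, and the upstream Cdkn1a window (chr17:29090729-29091028, plus strand) because this p53 target is the yardstick for Tap1. Capitals mark matches, on either strand, to the motifs named after the sequences.
Tap1: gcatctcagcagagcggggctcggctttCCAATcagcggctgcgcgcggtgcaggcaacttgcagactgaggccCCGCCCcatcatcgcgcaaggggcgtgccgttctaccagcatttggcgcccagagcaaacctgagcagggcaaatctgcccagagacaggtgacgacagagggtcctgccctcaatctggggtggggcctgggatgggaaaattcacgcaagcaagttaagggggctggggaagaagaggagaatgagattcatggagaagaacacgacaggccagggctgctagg
B2m: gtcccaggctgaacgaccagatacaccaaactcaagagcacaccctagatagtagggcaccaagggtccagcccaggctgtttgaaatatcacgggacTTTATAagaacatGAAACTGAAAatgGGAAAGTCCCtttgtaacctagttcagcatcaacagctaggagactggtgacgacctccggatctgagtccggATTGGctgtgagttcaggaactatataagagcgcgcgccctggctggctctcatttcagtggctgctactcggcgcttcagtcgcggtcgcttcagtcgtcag
Cdkn1a: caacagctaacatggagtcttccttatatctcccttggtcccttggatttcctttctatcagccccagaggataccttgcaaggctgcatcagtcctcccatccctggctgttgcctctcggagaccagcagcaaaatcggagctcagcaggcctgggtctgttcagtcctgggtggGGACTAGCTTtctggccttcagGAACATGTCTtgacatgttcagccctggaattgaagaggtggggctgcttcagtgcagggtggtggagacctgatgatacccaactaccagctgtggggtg

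The motifs searched were an interferon response element written as GAAA, any 2 bases and GAAA again, an NF-kB site written as GGG, any 2 bases and TTTCC, the GC box GGGCGG, the TATA box written as TATAAA, the CCAAT box, and the p53 half-site. The Tap1 window held a GC box and a CCAAT box and no other of these, and the Psmb9 window held the same boxes on the opposite strand. The B2m window held the interferon letters at -139 to -130 and the NF-kB letters at -126 to -117, counted from the start, besides a TATA and a CCAAT match on the minus strand. The upstream Cdkn1a window held 2 p53 half-sites, at -73 to -64 and at -51 to -42, which read the same pattern on both strands. The other Cdkn1a window, not shown, held 2 GC boxes and none of the other motifs, the p53 half-site included. Of 32851 RefSeq promoter windows of this length 3.44% held the interferon letters, 1.63% the NF-kB letters, 8.36% the p53 half-site, 13.6% the TATA letters, 35.7% the GC box and 37.4% the CCAAT box. A match is one of letters only, and a window without one says no more than that these letters are not in it.

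Tap1, the transporter subunit, climbed with time under auxin, which none of the other 5 genes measured did. After withdrawal it was back at its untreated level, and B2m too then lay among its untreated libraries. Tap1 held 23.7 and 18.3 normalized counts (untreated), 20.4 and 44.9 (2 h), 63.0 and 49.5 (4 h), 92.1 and 81.2 (6 h) and 138 and 163 (12 h of auxin). At the long times it held 344 and 298 (1 day), 260.4 and 349 (2 days) and 19.99 and 21.9 (withdrawal). From 4 h on, both libraries under auxin lay above both untreated ones. At 2 h replicate 1 lay among the untreated libraries and replicate 2 above them, and the withdrawal libraries lay among the untreated ones. In bulk RNA, more RNA per cell and more cells that carry the transcript cannot be told apart.

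Mean Tap1 was 2.68-fold the untreated level at 4 h, 4.13-fold at 6 h, 7.15-fold at 12 h, 15.3-fold at 1 day and 14.5-fold at 2 days. On the scale of log2(value + 1) its change against untreated was 0.52 (2 h), 1.38 (4 h), 2.00 (6 h), 2.79 (12 h), 3.88 (1 day) and 3.79 (2 days), with a standard error of 0.31 each. The change between 2 days and 1 day, -0.09, was smaller than that error. Of the 13355 tested genes 165 had a larger change at 4 h, 29 at 12 h, 12 at 1 day and 26 at 2 days. Inside the block of 2 to 12 h libraries the Tap1 change against 2 h was 0.86 (4 h), 1.48 (6 h) and 2.27 (12 h). Withdrawal gave -3.79 against 2 days and 0.01 against untreated.

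**Figure D1:**
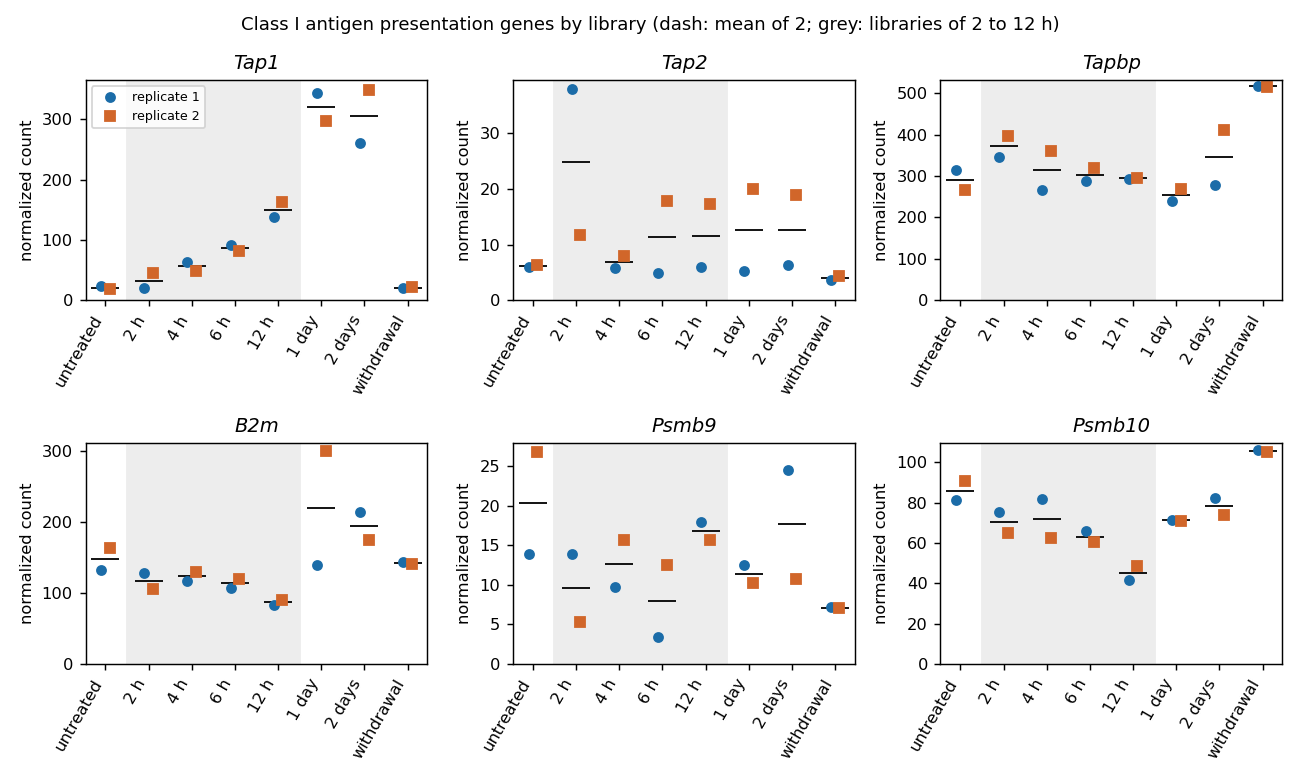
Normalized count (vertical axis, own scale in each panel) of the 6 measured genes in every library, by group (horizontal axis), with a blue circle for replicate 1, an orange square for replicate 2, a dash for their mean and grey behind the 2 to 12 h libraries. Tap1 lies between 260.4 and 349 at 1 and 2 days, against 23.7 and 18.3 in untreated cells, and the other 5 genes do not follow its course.

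Tap2, the other subunit of the transporter, was counted from few reads in every library. Tap2 held 5.96 and 6.42 normalized counts (untreated), 37.8 and 11.7 (2 h), 5.85 and 7.99 (4 h), 4.98 and 17.7 (6 h) and 5.95 and 17.2 (12 h of auxin). At the long times it held 5.24 and 19.99 (1 day), 6.32 and 18.9 (2 days) and 3.73 and 4.44 (withdrawal). Replicates differed up to several-fold, with replicate 2 above replicate 1 in every group but 2 h. From 4 h to 2 days the libraries overlapped the untreated ones. The log2 change was 1.63 ± 0.79 (SE) at 2 h, where both libraries were above both untreated ones, and 0.75 ± 0.79 at 2 days, where the 2 groups overlapped.

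Tapbp, the gene of tapasin, was highest after withdrawal. Tapbp held 314 and 266 normalized counts (untreated), 346 and 397 (2 h), 267 and 360.0 (4 h), 287 and 319 (6 h) and 294 and 296 (12 h of auxin). At the long times it held 239.6 and 268 (1 day), 279 and 412 (2 days) and 518 and 514 (withdrawal). Both withdrawal libraries lay above all other libraries, while under auxin the libraries overlapped the untreated ones at every time but 2 h. The mean after withdrawal was 1.78-fold that of untreated cells and 1.49-fold that of 2 days, with log2 changes of 0.83 and 0.61 (SE 0.18). Without replicate 1 of 2 days the change against 2 days was 0.325, and without replicate 2 it was 0.89.

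B2m, the light chain of every class I molecule, was lowest at 12 h. B2m held 132 and 162 normalized counts (untreated), 128 and 106 (2 h), 117 and 129.8 (4 h), 107 and 120.0 (6 h) and 82.9 and 89.9 (12 h of auxin). At the long times it held 139 and 299.7 (1 day), 213 and 174 (2 days) and 143 and 141 (withdrawal). The 12 h libraries lay below all others and the 2-day libraries above both untreated ones, and all 8 libraries of 2 to 12 h lay below the other 8. The log2 change against untreated was -0.75 at 12 h, 0.48 at 1 day and 0.40 at 2 days (SE 0.27), and 12 h against 2 h gave -0.42. The libraries of 1 day were far apart, replicate 1 among the untreated libraries and replicate 2 above them. Without replicate 2 the change there was -0.07, and without replicate 1 it was 1.03. The 1-day libraries of Psme2, a subunit of the PA28 proteasome activator, were also far apart, with 134 and 469 normalized counts, against 175 and 148 in untreated cells.

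Of the immunoproteasome subunits neither measured one climbed under auxin. Psmb9 held 13.9 and 26.7 normalized counts (untreated), 13.8 and 5.34 (2 h), 9.67 and 15.7 (4 h), 3.36 and 12.5 (6 h) and 17.9 and 15.7 (12 h of auxin). At the long times it held 12.5 and 10.2 (1 day), 24.5 and 10.8 (2 days) and 7.12 and 7.02 (withdrawal). Its libraries overlapped the untreated ones at 4 h, 12 h and 2 days and lay below both in the other groups. The Psmb9 log2 change against untreated ran from -1.41 (6 h) to -0.19 (12 h), with a standard error of 0.62. Psmb10 held 81.1 and 90.9 normalized counts (untreated), 75.5 and 64.9 (2 h), 81.5 and 62.4 (4 h), 66.0 and 60.2 (6 h) and 41.6 and 48.5 (12 h of auxin). At the long times it held 71.5 and 70.7 (1 day), 82.4 and 74.0 (2 days) and 106 and 105 (withdrawal). The 12 h libraries of Psmb10 lay below and its withdrawal libraries above all others. Its log2 change at 12 h was -0.92 against untreated and -0.63 against 2 h, and withdrawal against untreated gave 0.30 (SE 0.20).

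**Figure D2:**
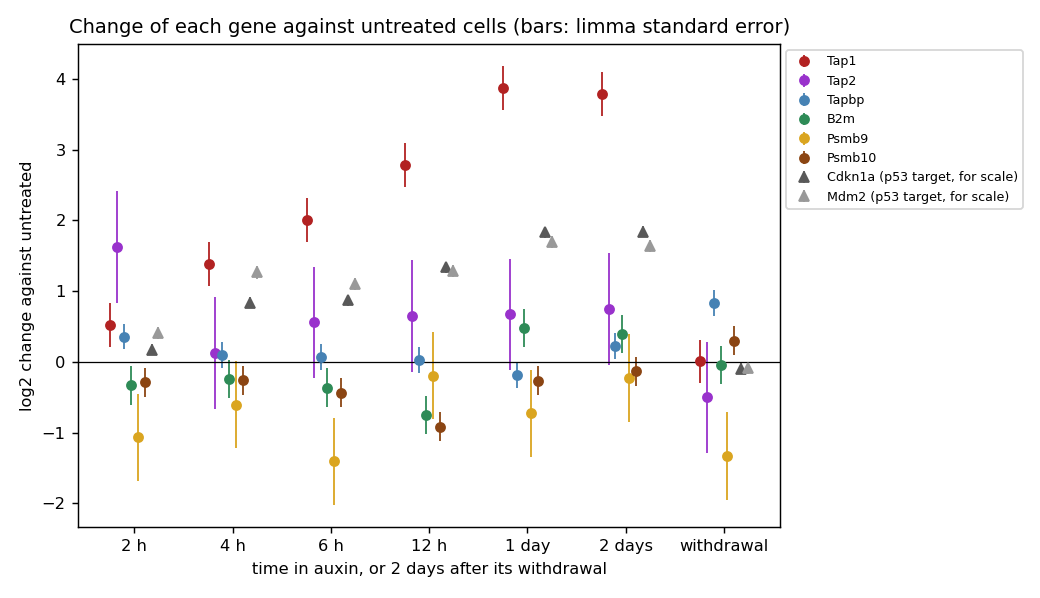
Log2 change against untreated cells (vertical axis, bars are limma's standard error) by time under auxin and after withdrawal (horizontal axis) for the 6 measured genes (circles) and for the p53 targets Cdkn1a and Mdm2 (triangles). Tap1 reaches 3.88 at 1 day, above Cdkn1a at 1.83, while the other 5 genes lie between -0.73 and 0.67 there.

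A gene was called when its limma p, adjusted by Benjamini-Hochberg over all tested genes, was below 0.05. The calls of the 6 genes are listed beside the share of all tested genes called, and nothing is read from them, since the genes were chosen with these values known. Against untreated none was called at 2 h, when 6.75% of all genes were called higher and 8.45% lower. Tap1 alone was called, as higher, at 4 h (8.86% higher and 10.2% lower among all genes) and at 6 h (10.9% higher, 13.4% lower). For 12 h these shares were 14.8% and 18.3%, with Tap1 higher and B2m and Psmb10 lower. Tap1 alone was called, again as higher, for 1 day (15.9% higher, 17.7% lower) and for 2 days (21% higher, 23.8% lower). Withdrawal against untreated called Tapbp higher (1.72% higher, 1.07% lower). Withdrawal against 2 days called Tapbp higher and Tap1 lower (22.2% higher, 19.1% lower).

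Against 2 h none of the 6 was called at 4 h (1.77% of all genes higher, 0.681% lower), Tap1 was called higher at 6 h (4.45% higher, 3.35% lower), and for 12 h Tap1 was called higher and Psmb10 lower (10.9% higher, 13.7% lower). Between 2 days and 1 day none was called (1.57% higher, 4.07% lower). The Tap1 call at 4 h was lost when only the groups compared were fitted and without replicate 1 of 4 h (log2 change 1.21). Its call at 6 h against 2 h was lost without replicate 1 of 2 h (0.93) and without either 6 h library. Without replicate 1 of 2 h Tap1 was called at 2 h as well, at 1.07. Without replicate 2 of 2 h its change at 2 h was -0.03, and it was called at 4 h against 2 h, at 1.41. The B2m call at 12 h was lost without any 1 of the 4 libraries compared and under 6 other settings, and the Psmb10 call at 12 h against 2 h without any 1 of its 4 libraries. The Tapbp call against untreated was lost without untreated replicate 2 and without either withdrawal library, and that against 2 days without replicate 1 of 2 days and without either withdrawal library.

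Set against the other 5 measured genes, Tap1 stood further from them at each time up to 1 day. Their median log2 change against untreated was -0.29 (2 h), -0.25 (4 h), -0.36 (6 h), -0.19 (12 h), -0.19 (1 day) and 0.23 (2 days), and Tap1 exceeded it by 0.81, 1.63, 2.37, 2.98, 4.07 and 3.56 in the same order. Tap1 made up 30.1% and 33.6% of the normalized counts of the 6 genes at 2 days, against 4.15% and 3.20% in untreated cells, and 2.50% and 2.75% after withdrawal. Levels of different genes are compared as normalized counts per kilobase of exon (mean ± SD, n = 2). Exon length was the union over all annotated transcripts, 5476 bases for Tap1 with 7 transcripts and 860 for B2m with 1. The order of levels depends on this choice of length. On that scale Tap1 stood at 55.6 ± 11.4 at 2 days and 3.83 ± 0.70 in untreated cells, and Tap2 at 3.33 ± 2.34 at 2 days and 1.64 ± 0.09 in untreated cells. The order of levels at 2 days was B2m (225 ± 32.4), Tapbp (95.1 ± 25.9), Tap1, Psmb10 (45.9 ± 3.48), Psmb9 (4.82 ± 2.65) and Tap2, in which Tap1 and Psmb10, and Psmb9 and Tap2, did not differ beyond their spread. In untreated cells it was B2m (171 ± 25.2), Tapbp (80.0 ± 9.44), Psmb10 (50.4 ± 4.09), Psmb9 (5.55 ± 2.48), Tap1 and Tap2, in which Psmb9 and Tap1 did not differ beyond their spread.

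Tap1 and Psmb9, whose promoter windows are largely the same bases, differed in course. The log2 ratio of Tap1 to Psmb9 within a library was 4.68 and 4.74 at 1 day and 3.36 and 4.89 at 2 days, against 0.73 and -0.52 in untreated cells, and 1.37 and 1.51 after withdrawal. All ratios at 1 and 2 days lay above those of untreated and withdrawal libraries. The immunoproteasome subunits stayed far below the constitutive subunits they replace. The log2 ratio of Psmb9 to Psmb6 lay between -9.42 and -6.97 over the 16 libraries, and that of Psmb10 to Psmb7 between -6.12 and -5.36. These ratios were not divided by exon length.

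**Figure D3:**
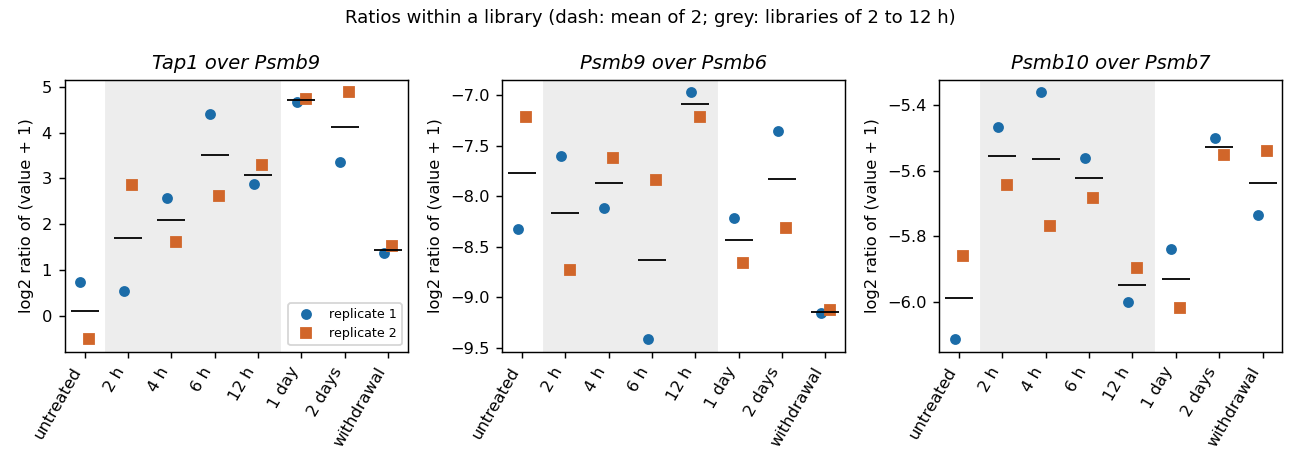
Log2 ratio of (value + 1) between 2 genes of the same library (vertical axis) by group (horizontal axis), with a symbol for each replicate and a dash for their mean. Tap1 over Psmb9 is 4.68 and 4.74 at 1 day and 0.73 and -0.52 in untreated cells, while Psmb9 over Psmb6 is at or below -6.97 in every library.

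Among 10345 candidate genes the 3 whose 8 group means followed those of Tap1 most closely were Gaa, a lysosomal glucosidase (Pearson's r = 0.996), Slc6a7, a proline transporter (0.995), and Scap, the escort of sterol-sensitive transcription factors (0.995). Cdkn1a, the cell cycle inhibitor that p53 induces, ranked 6 at 0.994, and Mdm2, whose product degrades p53, ranked 192 at 0.942. Of 36 p53 targets 24 had an r above 0.8 with Tap1, against 9.67% of all candidates. These are descriptions over 8 group means from the same libraries, and the rule had named Tap1 as a p53 target. Cdkn1a had 5492 and 5486 normalized counts at 2 days, against 1523 and 1537 in untreated cells (log2 change 1.84 ± 0.08, SE, limma adjusted p = 4.6e-09). Mdm2 had 7719.7 and 7623 at 2 days, against 2475 and 2433 in untreated cells (log2 change 1.64 ± 0.09, SE, limma adjusted p = 1.9e-08). The log2 change of Tap1 at 2 days, 3.79 ± 0.31, was larger than either.

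Of 39 tested p53 targets, a list without Tap1, 32 were called higher at 2 days, when 21% of all tested genes were, with a median log2 change of 1.13. Perp, a membrane protein of apoptosis, had 1312 and 1364 normalized counts at 2 days and 135 and 80.4 in untreated cells (log2 change 3.67 ± 0.18, SE, limma adjusted p = 1.3e-08). Plk2, a kinase, had 5052 and 4811 at 2 days and 620.3 and 361 in untreated cells (log2 change 3.38 ± 0.17, SE, limma adjusted p = 1.6e-08). After withdrawal 31 of the 39 were called lower than at 2 days (19.1% of all tested genes), with a median of -1.18. The other measured genes had different nearest genes. B2m was nearest to Nsmce1 (0.983), the lysosomal tetraspanin Cd63 (0.9815) and Sdhaf1 (0.976), Psmb10 to Cdh4 (0.988), Poldip2 (0.988) and the histone deacetylase Hdac2 (0.982), and Tapbp to Msl3l2 (0.950), Rnf17 (0.934) and Mtap7d3 (0.922). Tap2 was nearest to Zfp655 (0.937) and Psmb9 to Tdp1 (0.954), both from few reads. Among themselves the 6 genes had an r over the group means between -0.55 (Tap1 and Tapbp) and 0.60 (B2m and Psmb10).

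The rest of the class I pathway held calls in both directions, as all tested genes did. Of its 52 other tested genes 10 were called higher and 8 lower at 2 days (21% higher and 23.8% lower among all tested genes), with a median log2 change of 0.01 against -0.01 over all tested genes. At 12 h 10 were called higher and 8 lower (14.8% and 18.3% of all tested genes), and at 1 day 6 higher and 9 lower (15.9% and 17.7%). Withdrawal called 8 higher and 8 lower against 2 days (22.2% and 19.1%). Among 9 tested heavy chains, the proteins that hold the peptide, H2-K1 was called lower at 1 day, with 58.8 and 87.8 normalized counts, against 106 and 157 in untreated cells (log2 change -0.84 ± 0.22, SE, limma adjusted p = 0.0102). H2-Q4 was the 1 called at 2 days, higher, with 73.3 and 96.0 normalized counts, against 37.8 and 58.2 in untreated cells (log2 change 0.82 ± 0.29, SE, limma adjusted p = 0.0345). H2-D1 had 130.2 and 155 at 2 days and 162 and 166 in untreated cells and was not called. The heavy chain genes are close copies, and how their reads were divided is uncertain.

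Among 16 genes of peptide loading and trimming 3 were called higher (Canx, Ganab and Lap3) and 3 lower (Blmh, Thop1 and Tpp2) at 2 days. The shares of all tested genes were 21% higher and 23.8% lower. Canx, the calnexin that helps new heavy chains fold, had 15709 and 16875 normalized counts at 2 days, against 10597 and 10786 in untreated cells (log2 change 0.61 ± 0.09, SE, limma adjusted p = 7.1e-05). Thop1, a peptidase that breaks down peptides in the cytosol, had 1358 and 1418 at 2 days and 3113 and 3043 in untreated cells (log2 change -1.15 ± 0.06, SE, limma adjusted p = 3.2e-08), and 2771 and 2851 after withdrawal. Pdia3, the disulfide isomerase of the loading complex, had 8911 and 9490.5 at 2 days and 9325 and 8354 in untreated cells and was not called. Erap1, which trims peptides in the endoplasmic reticulum, averaged 27.5 ± 4.97 at 2 days and 17.4 ± 1.66 in untreated cells (SD, n = 2 each) and was not called either.

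Of 19 tested transcription factors of class I genes 6 were called higher and 2, Irf8 and Nfya, lower at 2 days. The shares of all tested genes were 21% higher and 23.8% lower. Rfx5, which binds class I and class II promoters, had 611 and 602 normalized counts at 2 days, against 239.9 and 392 in untreated cells (log2 change 0.98 ± 0.18, SE, limma adjusted p = 0.00062). Irf9, a partner of STAT proteins in interferon signalling, had 273 and 335 at 2 days and 163 and 118 in untreated cells (log2 change 1.12 ± 0.24, SE, limma adjusted p = 0.00184). Relb, an NF-kB subunit, had 343 and 330.1 at 2 days and 212 and 191 in untreated cells (log2 change 0.74 ± 0.16, SE, limma adjusted p = 0.00211). Irf8 had 4.39 and 4.74 at 2 days and 20.4 and 41.2 in untreated cells. Irf1, which drives class I genes under interferon, had 226 and 199 at 2 days and 194 and 251 in untreated cells and was not called. Nlrc5, the class I transactivator, was below the mean of 10 that testing required, with 7.03 and 21.4 normalized counts at 2 days, against 2.52 and a listed 0 in untreated cells.

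Of 31 tested interferon receptor and response genes 9 were called higher and 6 lower at 2 days. Among all tested genes 21% were called higher and 23.8% lower, and the median log2 change of the list was 0.06. Ifitm1, an antiviral membrane protein, had 3302 and 3272 normalized counts at 2 days, against 1254 and 1149 in untreated cells (log2 change 1.45 ± 0.09, SE, limma adjusted p = 4.6e-08). Ddx58, the RNA sensor RIG-I, had 268 and 339 at 2 days and 1083 and 1193 in untreated cells (log2 change -1.91 ± 0.12, SE, limma adjusted p = 1.0e-07). Bst2, the restriction factor tetherin, had 119.9 and 111 at 2 days and 396 and 276 in untreated cells. With 148 and 134 after withdrawal it was the 1 gene of the list called lower than in untreated cells (1.07% of all tested genes). Stat2, a transcription factor of interferon signalling, was called higher at 12 h than at 2 h, with 613 and 595 normalized counts at 12 h, against 355 and 362 at 2 h (log2 change 0.75 ± 0.12, SE, limma adjusted p = 0.000565).

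**Figure D4:**
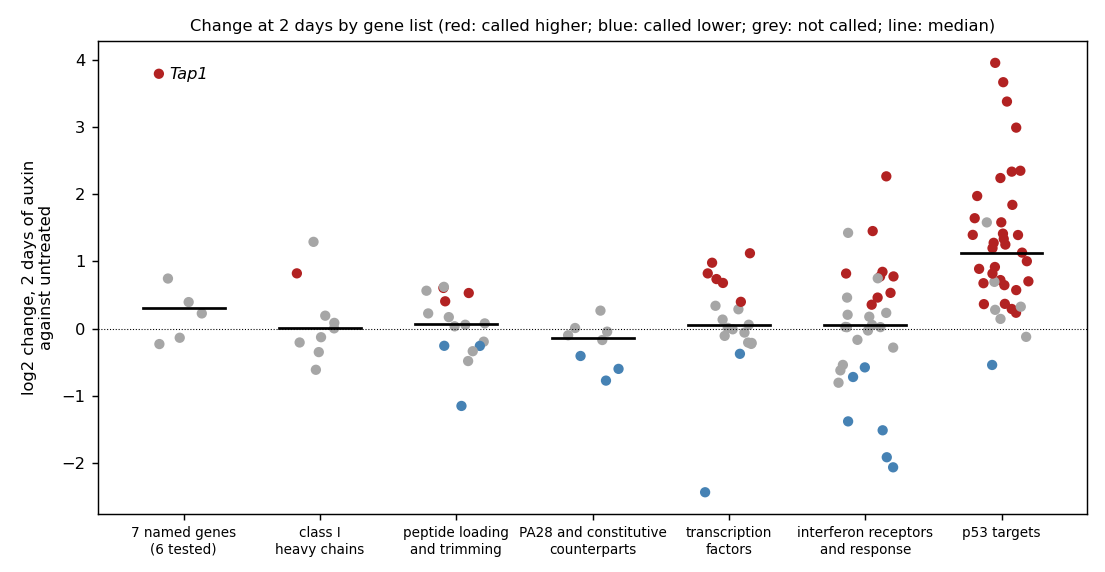
Log2 change at 2 days of auxin against untreated cells (vertical axis) of every tested gene, by list (horizontal axis), red where called higher, blue where called lower, grey where not called, with a line at the median of the list. Tap1 stands apart from the other measured genes at 3.79, the pathway lists spread to both sides of 0, and the p53 targets have a median of 1.13.

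The proteasome subunits that the constitutive and the immune form share were mostly lower at 2 days, while of the constitutive catalytic subunits Psmb7 was called lower and Psmb5 and Psmb6 were not called. Of 28 subunits other than the 3 catalytic ones 24 were called lower and none higher at 2 days (median log2 change -0.54), when 23.8% of all tested genes were called lower. After withdrawal 26 were called higher than at 2 days (median 0.59), as were 22.2% of all tested genes. Psmb7, the counterpart of Psmb10, had 3771 and 3522 normalized counts at 2 days, against 5689.6 and 5343 in untreated cells (log2 change -0.60 ± 0.08, SE, limma adjusted p = 5.1e-05), and 5708 and 4941 after withdrawal. Psmb6, the counterpart of Psmb9, had 4180.1 and 3741 at 2 days and 4780.0 and 4129 in untreated cells and was not called, and neither was Psmb5, with 1555 and 1425 at 2 days and 1663 and 1527 in untreated cells. In the 2 to 12 h libraries all 3 were called lower than in untreated cells, as were 8.45% (2 h) to 18.3% (12 h) of all tested genes. Their ranges there did not overlap those of the other 8 libraries, as for B2m.

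Tap1 was also set against its neighbours. Of 15 genes with values within 200 kb, Tap1 included, 14 were tested, and at 2 days 4 were called higher and 1, Rxrb, lower. Of all tested genes 21% were called higher and 23.8% lower, so these few calls are given as a description. Besides Tap1 the higher ones were H2-Eb1 (log2 change 2.56 ± 0.65, SE, limma adjusted p = 0.00598), H2-DMb1 (1.31 ± 0.40, SE, limma adjusted p = 0.0159) and the predicted gene Gm20427 (0.76 ± 0.28, SE, limma adjusted p = 0.038), which overlaps H2-Ke6 and is uncertain. H2-DMb1 helps load class II molecules, and H2-Eb1 is a class II chain of antigen-presenting cells. H2-Eb1 had 706 and 729.6 normalized counts at 2 days, against 354 and 40.9 in untreated cells, which were far apart, and its call was lost with the groups compared fitted alone. It had 878 and 989.8 at 1 day, 16.3 to 42.1 in the 2 to 12 h libraries and 148 and 169 after withdrawal. Its change at 2 days was 1.02 without untreated replicate 2 and 4.10 without untreated replicate 1.

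**Figure D5:**
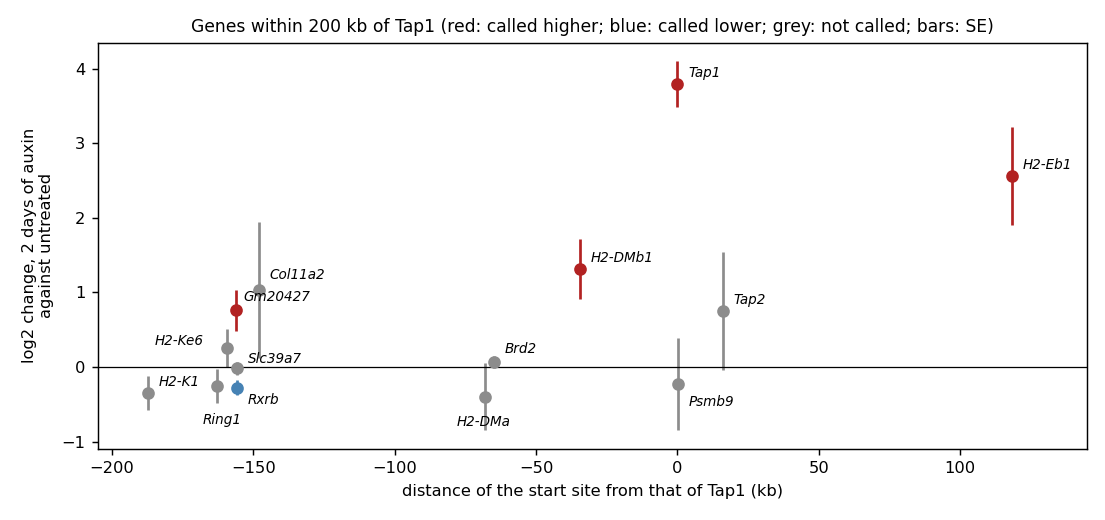
Log2 change at 2 days of auxin against untreated cells (vertical axis, bars are limma's standard error) of the 14 tested genes within 200 kb of Tap1, by the distance of their start from that of Tap1 (horizontal axis, kb). Tap1 at 3.79 stands between Psmb9 at -0.23 and Tap2 at 0.75, and H2-Eb1 is at 2.56.

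Markers of other cell types were measured beside these results. Of 10 immune markers 6 were measured, and they summed to 992 and 1179 normalized counts at 1 day, 854 and 888 at 2 days, 353 and 364 after withdrawal and 540.2 and 217 in untreated cells. H2-Eb1 alone held 706 and 729.6 of these at 2 days and 354 and 40.9 in untreated cells. Cd74, the invariant chain of class II cells, had 19.0 and 16.1 at 2 days and 24.6 and 23.7 in untreated cells, and Ptprc, H2-Aa and Lyz2 were not analysed here. Of 10 fibroblast markers 3 were measured, and they summed to 183 and 162 at 2 days and 195 and 176 in untreated cells. Their sum at 12 h was 231 and 238, above all other libraries. Of 10 trophectoderm markers 8 were measured, and they summed to 2332 and 1996 at 1 day, 2600.5 and 2501 at 2 days, 1719 and 1778 after withdrawal and 1849 and 1803 in untreated cells. All 10 primitive endoderm markers were measured, and their sum was 7489 and 7796 at 1 day, 11218 and 11908 at 2 days, 5414 and 5349 after withdrawal and 5159 and 3277 in untreated cells. The trophectoderm and endoderm sums were thus higher at 1 and 2 days than in untreated and withdrawal libraries, as Tap1 was. So was the immune sum, of which H2-Eb1 made up most at those times. The part of these cell types in the Tap1 level was not tested. At 12 h, when Tap1 was 7.15-fold its untreated level, the endoderm sum was 5734 and 5763, above both untreated libraries. The trophectoderm sum was 1978 and 2115, likewise above them, and the immune sum was 228 and 211. Already at 2 h, when mean Tap1 was 1.55-fold its untreated level, the endoderm sum was 6219 and 5923. The trophectoderm sum was then 2108 and 2001 and the immune sum 195 and 215.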

How the data were processed

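The deposited table gives a signal per gene and library, normalized read counts that the authors scaled between libraries. Per the submitters' processing notes, Trim Galore, STAR, RSEM and DESeq2 were used with mm10, with versions, annotation and strand setting not given in the sources used here. Values up to 20 steps of 1 read were whole multiples of it, within 0.1, for 72.5% to 99.1% of values in the 1884 genes with 1 transcript and for 35.6% to 44.6% in other genes, so no count test was run. Genes with a mean of at least 10 were fitted on log2(value + 1), which understates the change of low genes, in 1 limma 3.58.1 model of all 16 libraries (R 4.3.3, with an intensity trend), and p-values were adjusted by Benjamini-Hochberg over 13355 genes in each of 12 comparisons. The model was tested on simulated data.

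Members and gene lists were chosen with earlier results of these data known. Named were the members, Ddx10, Mdm2, Cdkn1a, Psmb5, Psmb6 and Psmb7, up to 4 called genes with the smallest p per list and comparison, and for each member the 3 genes with a mean of at least 50 and the highest r of log2(value + 1) over the group means. H2-D1, Pdia3, Erap1, Lap3, Tpp2, Irf1, Nfya, Nlrc5, Psme2, Cd74 and the neighbours of Tap1 were named after their values were seen. Some genes that this rule names are not reported here. Alternatives were pseudocounts of 0.5 and 5, no filter or a mean of at least 50, scaling by trimmed means of M values or upper quartiles, a replicate block, no intensity trend, the groups compared alone, the libraries of 1 block alone (added after seeing the data), and each library left out.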

Additional observations from a re-analysis of the deposited data

Results flagged for a closer look

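B2m and Blmh lay on opposite sides of the untreated libraries at different times. Both B2m libraries were below both untreated ones at 12 h and above them at 2 days. Both Blmh libraries were above them at 4 h and below them at 2 days. The difference between the times was not tested. Both Blmh changes were called, while B2m was not called at 2 days and lost its 12 h call under several alternatives. The share of all tested genes with such a pattern was not determined. The log2 change of B2m against untreated was -0.75 at 12 h and 0.40 at 2 days. That of Blmh, a cytosolic peptidase that trims class I peptides, was 0.36 at 4 h and -0.26 at 2 days. In both genes the 2 times lie on either side of the gap between the 2 to 12 h libraries and the others, so time and that gap cannot be told apart.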

How the results depend on the processing

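The Tap1 call was kept in 104 of 109 alternatives over the 8 comparisons in which Tap1 was called. Leaving out 1 library, its log2 change ran from 3.58 to 4.00 for 2 days against untreated and from -4.00 to -3.58 for withdrawal against 2 days. No called change of a measured member changed sign. Of those not called, B2m at 1 day ran from -0.07 to 1.03, Tap1 at 2 h from -0.03 to 1.07 and Tap1 after withdrawal against untreated from -0.17 to 0.18, and changes of Tap2, Tapbp, Psmb9 and Psmb10 crossed 0 as well. With the groups compared fitted alone, the members called fell to 0 at 4 h, 1 at 12 h, 0 for withdrawal against untreated and 1 for 12 h against 2 h. The other pathway genes called then numbered 5 (2 h), 6 (4 h), 7 (6 h), 11 (12 h) and 2 (1 day) against untreated, 26 for withdrawal against 2 days, and 5 (6 h) and 24 (12 h) against 2 h, where the fit of all libraries called 9, 11, 12, 18, 15, 16, 2 and 15. Without the intensity trend 2 members were called at 6 h, 0 for withdrawal against untreated, and 0 pathway genes for 6 h against 2 h. With the 8 libraries of a block alone, 0 members were called for withdrawal against untreated and 3, 7 and 27 pathway genes for 4 h, 6 h and 12 h against 2 h. Upper quartiles left 1 member for 12 h against 2 h, and trimmed means of M values called 1 pathway gene for 2 days against 1 day. The cause of these shifts was not tested.

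Leaving out 1 library at a time gave these lowest and highest counts of members called: 0 to 1 (2 h), 0 to 1 (4 h), 2 to 2 (12 h) and 1 to 2 (1 day) against untreated, 0 to 1 for withdrawal against untreated, 1 to 2 for withdrawal against 2 days, and 0 to 1 (4 h), 0 to 1 (6 h) and 1 to 1 (12 h) against 2 h. The same for the other pathway genes was 5 to 13 (2 h), 7 to 11 (4 h), 7 to 13 (6 h), 10 to 17 (12 h), 10 to 21 (1 day) and 13 to 18 (2 days) against untreated, 0 to 3 for withdrawal against untreated, 11 to 13 for withdrawal against 2 days, 0 to 0 (4 h), 0 to 0 (6 h) and 4 to 7 (12 h) against 2 h, and 0 to 6 for 2 days against 1 day. A lone library is assumed there to vary like the other groups.

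With the replicate number as a block the pathway genes called for 6 h against 2 h went to 1, those for 12 h against 2 h numbered 13, and no other count of members or pathway genes changed. Over 28 pairs of groups the correlation of same-numbered libraries' deviations, taken over all tested genes, lay between -0.061 and 0.066. Values near 0 show no deviation shared by number over all genes. They cannot show whether same-numbered libraries were prepared together, and a single gene can depart from them.

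Tap2 and Psmb9, the measured members with the fewest reads, had standard errors of 0.79 and 0.62 on the log2 scale, against a median of 0.158 over all tested genes, and depth was not separated there from other spread between libraries.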
